A study of Mus musculus with 14 samples.

Results

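*Pramel4*, *Pramel5*, *Pramel6* and *Pramel7*, 4 of the 23298 genes in the deposited table, were examined in 14 mouse embryonic stem (ES) cell lines. All 4 were found by name. They were chosen by their measured values, because *Pramel6* and *Pramel7* separate XX from XY lines, and the XX against XY difference of these genes is therefore described without a test. The lines carried the genomes of C57BL/6J (B) and CAST/EiJ (C) mice as F1 hybrids, with the maternal strain named first. There were 3 BC XX, 3 CB XX, 3 BC XY, 3 CB XY and 2 BC XO lines, the last with a single X chromosome. Each line was established from a separate blastocyst and grown in serum and LIF on inactivated mouse embryonic fibroblast feeder cells, which were depleted before RNA was taken from the bulk culture. The labels name no drug or transgene in any line and no XO line from the CB cross.

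The PRAME family takes its name from a human melanoma antigen and encodes leucine-rich repeat proteins, many of which are known from germ cells, oocytes and the early embryo. The family has expanded greatly in the mouse, mainly into arrays of near copies on chromosome 4. Pramel6 and Pramel7 are known from the inner cell mass and from ES cells, where they lie downstream of LIF and STAT3 and help to keep the pluripotent state. Pramel7 is further known to recruit a Cullin 2 ubiquitin ligase to UHRF1, the cofactor that brings the maintenance methyltransferase DNMT1 to newly copied DNA.

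*Pramel6* (ENSMUSG00000025838.6) lies on chromosome 2 of mm9 at 87346722 to 87351029 on the plus strand, and *Pramel7* (ENSMUSG00000025839.3) at 87329244 to 87337250 on the minus strand. Their starts are neighbours, 9472 bases apart, and the genes run away from each other. The other genes next to the pair are olfactory receptor genes. *Pramel4* (ENSMUSG00000073724.5, 143649029 to 143659230, plus strand) and *Pramel5* (ENSMUSG00000036749.8, 143860536 to 143870391, minus strand) lie 201306 bases apart on chromosome 4, among other PRAME family genes. The coding sequences of *Pramel4* and *Pramel5* were identical at 93.5% of 1475 aligned bases, whereas those of *Pramel6* and *Pramel7* were identical at 59.7% of 1401. Of the 50-base stretches of each transcript, the length of the reads, 96.0% for *Pramel4* and 25.6% for *Pramel5* also occurred in the coding transcript of another gene. For *Pramel6* 0 of 1732 and for *Pramel7* 0 of 1812 stretches did so. The reads of *Pramel4* and *Pramel5* can thus be split among copies or set aside, depending on how the authors counted them, and their values are uncertain.

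The 250 bases upstream of the RefSeq starts of *Pramel6* and *Pramel7* are shown because these are the members with measurable signal and their starts are neighbours. They are from GRCm38.p6, a later build than mm9, at chr2:87506315-87506564 on the plus strand for *Pramel6* and chr2:87492419-87492668 on the minus strand for *Pramel7*. Capitals mark CG and the CCAAT box, read as CCAAT or as ATTGG on the other strand.
Pramel6: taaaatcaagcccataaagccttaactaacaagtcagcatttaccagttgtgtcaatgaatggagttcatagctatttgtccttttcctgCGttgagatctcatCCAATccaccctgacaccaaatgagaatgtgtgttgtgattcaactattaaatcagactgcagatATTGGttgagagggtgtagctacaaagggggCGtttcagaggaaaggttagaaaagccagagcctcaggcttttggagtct
Pramel7: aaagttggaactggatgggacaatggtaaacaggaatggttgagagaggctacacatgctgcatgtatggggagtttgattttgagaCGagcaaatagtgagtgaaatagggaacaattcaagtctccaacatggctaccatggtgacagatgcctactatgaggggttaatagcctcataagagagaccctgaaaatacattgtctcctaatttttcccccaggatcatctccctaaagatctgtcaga
The *Pramel6* window held 2 CG and 2 CCAAT matches, and the *Pramel7* window 1 and 0. Among 32851 RefSeq promoter windows of this length the median number of CG matches was 6, and 33.8% held at least 1 CCAAT match. Windows with no more CG than *Pramel6* were 29.0% of all, and with no more than *Pramel7* 18.8%. The STAT core TTCNNNGAA (in 7.02% of windows), the TATA box TATAAA (12.4%) and the E-box CACGTG (6.02%) had 0 matches on either strand in all 4 members' windows. Both upstream windows were identical at 61.2% of 206 aligned bases, against 95.7% of 230 for *Pramel4* and *Pramel5*. The annotation used for mm9 and RefSeq differ in the span of *Pramel7*, so that its start is uncertain.

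Values are the deposited read signal per gene. Within a line, 98.0% to 98.4% of the values under 500 steps are whole multiples, within 0.02, of a smallest step that is taken as 1 read and ranges from 0.407 to 2.46. On that basis the lines hold from 11904424 (CB XY 2) to 69646376 (BC XX 2) reads, and a value of 3 steps or less cannot be told from 0. All 10 ES cell markers were above 0 in every line, the lowest being *Utf1* at 368 in a BC XX line. All 20 feeder fibroblast markers were also above 0 in every line. Their summed signal was 53783 to 147124 in BC XX, 11270 to 31683 in CB XX, 7052 to 18009 in BC XY, 7270 to 26793 in CB XY and 16773 and 16874 in XO lines. The Y-linked *Uty* stood at 19.6 in CB XY 2 and 45.4 in CB XY 3, within the range of XX lines (12.8 to 195), and at 945 to 2088 in the other XY lines. *Ddx3y* was at 27.0 and 126 in these 2 lines, at 49.7 to 1024 in XX lines and at 1084.5 to 2268 in the other XY lines. *Kdm5d* (36.9 to 123 in BC XX, 6.02 to 28.7 in BC XY) and *Eif2s3y* (102 to 317 and 40.8 to 255) did not separate the labels. By *Uty* and *Ddx3y* the 2 lines go against their label, and results that rest on them are, for the main values, also given without them. The numbers of the CB XX lines follow column order and are names only.

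*Pramel6* was at 192, 125 and 113 in the BC XX lines and at 206, 106 and 120 in the CB XX lines. It was at 7.49, 8.31 and 4.69 in the BC XY lines and at 2.02, 9.82 and 31.2 in the CB XY lines. Every XX line was above every XY line, and 2.02 in CB XY 1 was a single step. The XX mean was 13.6 times the XY mean, or 25.5 times without CB XY 2 and CB XY 3, and the difference in log2(value + 5) was 3.41. The difference was 3.62 within the BC and 3.20 within the CB cross, and 3.80 when CB XY 2 and CB XY 3 were left out.

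*Pramel7* was at 323, 256 and 209 in the BC XX lines and at 195, 292 and 288 in the CB XX lines. The BC XY lines had 12.5, 28.3 and 45.5, and the CB XY lines 2.02, 19.6 and 62.3. Again no XY line reached an XX line, with a gap from 62.3 to 195. The XX mean was 9.18 times the XY mean, or 11.8 times without CB XY 2 and CB XY 3. The difference in log2(value + 5) was 3.30, being 3.09 within the BC and 3.52 within the CB cross and 3.62 without CB XY 2 and CB XY 3. Because these values chose the genes, nothing is read from the separation itself. Of all 15311 genes tested between these lines, 351, or 2.29%, had every XX line above every XY line, and 1.23% the reverse. In bulk RNA, fewer expressing cells and less RNA per cell cannot be told apart.

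**Figure D1:**
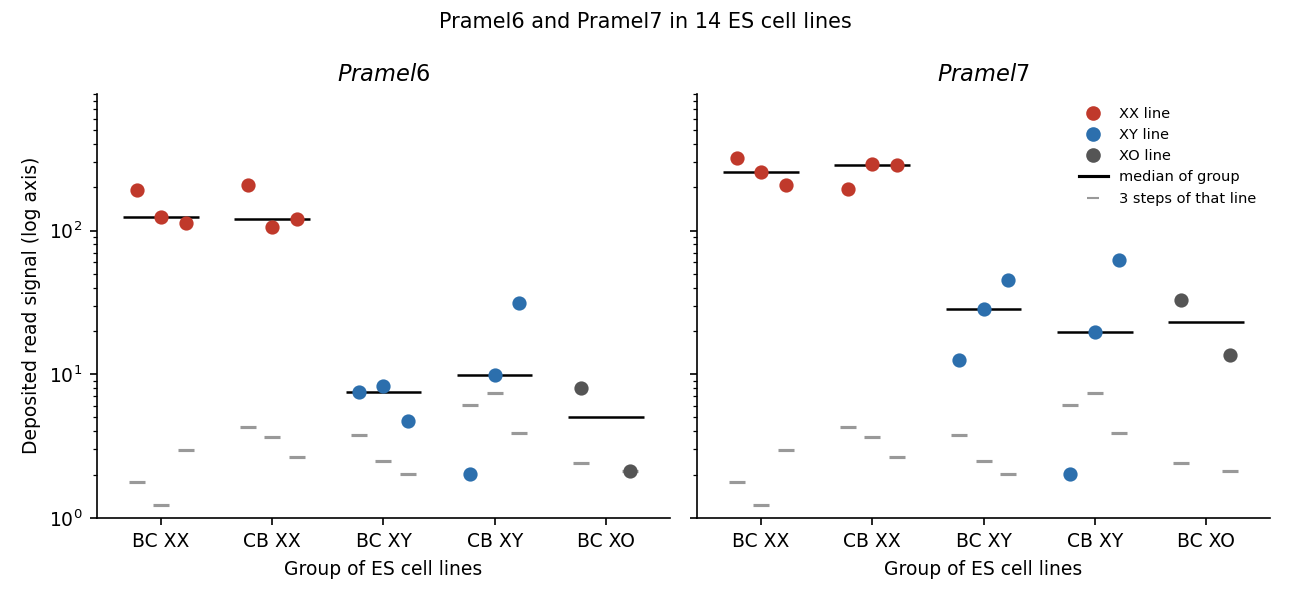
Deposited read signal of *Pramel6* and *Pramel7* (log axis) in each of the 14 lines by group, with black bars for group medians and grey ticks for 3 steps of that line. The 6 XX lines lie at 106 or more for *Pramel6* and 195 or more for *Pramel7*, and the XY and XO lines at 31.2 or less and 62.3 or less.

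The XO lines, which share the BC cross and lack a second X chromosome, had *Pramel6* at 7.98 and 2.13 and *Pramel7* at 32.7 and 13.5. Neither line approached the BC XX range for either gene. For *Pramel6*, BC XO 1 fell within the BC XY range of 4.69 to 8.31 and BC XO 2 below it, at 3 steps. For *Pramel7*, both XO lines fell within the BC XY range of 12.5 to 45.5. On the scale of log2(value + 5), the XO mean was below the BC XX mean by 3.91 for *Pramel6* and 3.32 for *Pramel7*, and below the BC XY mean by 0.29 and 0.22. With 2 XO lines these are descriptions.

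By group means, *Pramel6* ran from CB XX (144 ± 54.2, SD, n = 3) and BC XX (143 ± 42.8, SD, n = 3) to CB XY (14.3 ± 15.1, SD, n = 3), BC XY (6.83 ± 1.90, SD, n = 3) and XO (5.05, n = 2). *Pramel7* ran from BC XX (263 ± 56.9, SD, n = 3) and CB XX (258 ± 55.2, SD, n = 3) to BC XY (28.8 ± 16.5, SD, n = 3), CB XY (28.0 ± 31.0, SD, n = 3) and XO (23.1, n = 2). The 2 XX groups lay within each other's spread for both genes, as did the XY and XO groups for *Pramel7*. For *Pramel6* the CB XY mean lay above every BC XY and XO line, with 31.2 in CB XY 3 and the other CB XY lines at 2.02 and 9.82, and BC XY and XO lay within each other's spread. Per kilobase of annotated exon, *Pramel7* had a mean of 122 in the XX lines and *Pramel6* 68.9, and 13.3 and 5.08 in the XY lines. By its XX mean, without regard to length, *Pramel6* stood above 54.3% and *Pramel7* above 60.1% of all genes in the table.

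*Pramel4* and *Pramel5* were at or near the floor. *Pramel5* was at 2.98, 3.26 and 4.91 in the BC XX lines, or 5, 8 and 5 steps, and between 0 and 2.67 in the other 11 lines, at 3 steps or fewer. The BC XX lines were the only group above 3 steps, and the highest value among the other lines, 2.67 in CB XX 3, lay below the lowest of BC XX. The value of 3 steps depends on depth. It was 1.22 to 2.95 in BC XX, 2.67 to 4.26 in CB XX, 2.01 to 3.75 in BC XY and 3.89 to 7.37 in CB XY lines. A level like that of BC XX could thus fall at or under 3 steps in other lines. *Pramel4* was at 0 in 12 lines and at a single step in BC XX 2 and BC XO 2. Neither gene reached the minimum value of 10 and neither was tested, so that 2 of the 4 members entered the fits.

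The reciprocal crosses were compared within each complement, which the choice of genes did not use. In XX lines they differ in the parental origin of each strain's genome, and with it in whatever is inherited from the mother alone. In XY lines they also differ in the strain of the X and Y chromosomes. Genotype and parental origin can thus not be fully told apart in either complement. Differences were tested with limma on log2(value + 5) over 16261 genes, with Benjamini-Hochberg adjustment. Between CB XX and BC XX lines, *Pramel6* differed by -0.01 (standard error 0.48, 95% interval -1.05 to 1.02, adjusted p = 0.991) and *Pramel7* by -0.02 (standard error 0.62, -1.36 to 1.31, adjusted p = 0.988). Neither passed the threshold of 0.05, nor an unadjusted p under 0.05, in a comparison where 7.15% of all genes passed the first and 26.5% the second. Differences inside these intervals were not detectable.

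Between CB XY and BC XY lines, *Pramel6* differed by 0.41 (standard error 0.48, -0.63 to 1.45, adjusted p = 0.697) and *Pramel7* by -0.45 (standard error 0.62, -1.78 to 0.89, adjusted p = 0.748). Neither passed, with 0.64% of all genes called and 18.7% at an unadjusted p under 0.05, which neither gene reached. With CB XY 1 as the only CB XY line, its values of 2.02 gave differences of -0.74 for *Pramel6* and -2.14 for *Pramel7* (limma adjusted p = 0.593 and 0.286, with the lone line assumed to vary like the others). Without CB XY 1 the difference of *Pramel7* was 0.40, and without CB XY 3 that of *Pramel6* was -0.20. The direction in XY lines thus depended on single lines.

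The XX against XY difference itself was compared between the crosses by the interaction term. In the CB cross it was smaller than in the BC cross by 0.42 for *Pramel6* (difference -0.42, standard error 0.69, 95% interval -1.89 to 1.05, limma adjusted p = 0.902) and larger by 0.42 for *Pramel7* (standard error 0.88, -1.46 to 2.31, limma adjusted p = 0.931). Of all genes 0.0738% were called, and 9.05% had an unadjusted p under 0.05, which neither gene reached. With CB XY 1 as the only CB XY line the terms were 0.73 and 2.11 (limma adjusted p = 0.885 and 0.517). A difference between the crosses was not detectable for either gene at this number of lines.

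**Figure D2:**
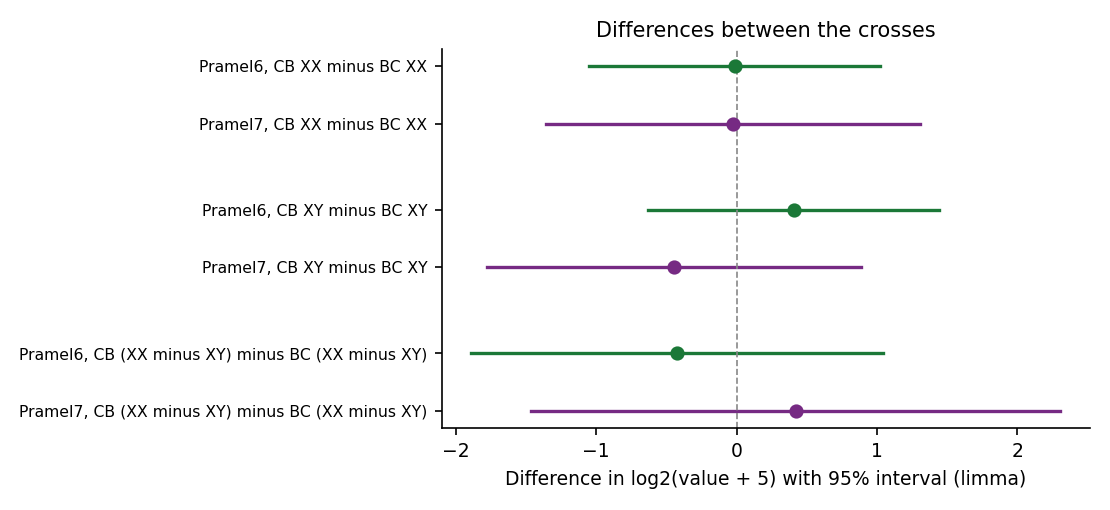
Estimated differences between crosses in log2(value + 5) (x axis) for *Pramel6* (green) and *Pramel7* (purple), with bars for 95% intervals from limma. All 6 intervals include 0, and the estimates lie between -0.45 and 0.42.

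*Pramel6* and *Pramel7* were compared line by line within each complement, as the lines form separate clusters. Among the 6 XX lines the Pearson correlation was -0.154 (two-sided exact permutation p = 0.806, adjusted p = 0.806) and Spearman's rho was -0.257 (exact p = 0.658, adjusted p = 0.658). It was 0.952 over the 3 BC XX and -0.990 over the 3 CB XX lines, where CB XX 1 had the highest *Pramel6* and the lowest *Pramel7* value. Among the 6 XY lines it was 0.714 (two-sided exact permutation p = 0.0889, adjusted p = 0.178 over 2 relations) and rho was 0.600 (exact p = 0.242, adjusted p = 0.483). Within the crosses it was -0.671 over 3 BC XY and 0.993 over 3 CB XY lines. Without CB XY 1 and CB XY 3, which were farthest from the median, r was -0.656, so that the positive value in XY lines rested on those 2 lines. Over the 4 XY lines without CB XY 2 and CB XY 3 it was 0.598, given as a description. Without BC XX 1 and CB XX 1, r among XX lines was -0.077. The ratio of *Pramel6* to *Pramel7* ranged from 0.363 to 1.06 over the XX lines and from 0.103 to 1.00 over the XY lines, and was 0.244 and 0.158 in the XO lines. Both upper limits were set by 1 line. Without CB XX 1 the highest XX ratio was 0.596, and without CB XY 1, where both genes were at a single step, the highest XY ratio was 0.600, in a BC XY line.

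**Figure D3:**
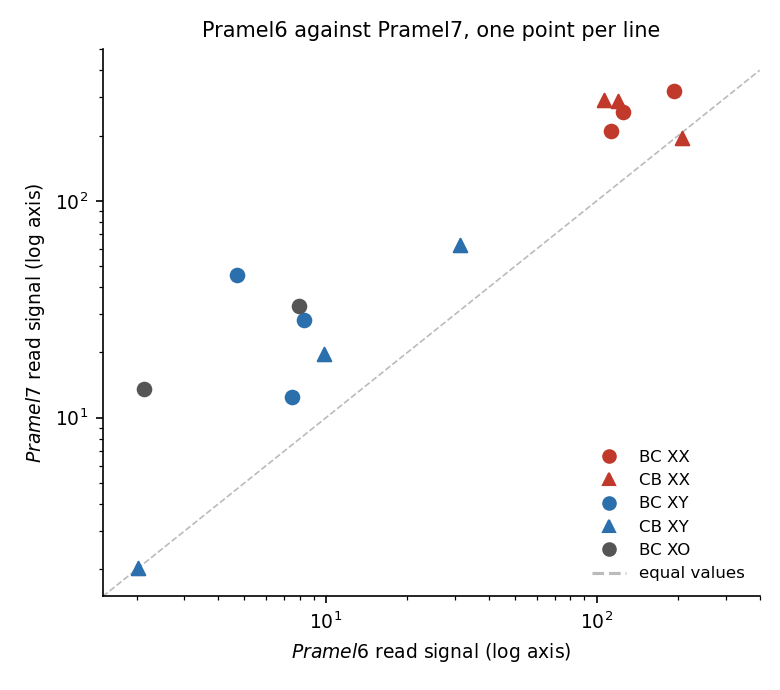
Read signal of *Pramel7* (y) against *Pramel6* (x), both on log axes, with a point for each line, circles for BC and triangles for CB lines, and a dashed line of equal values. The XX lines form a cluster apart from the XY and XO lines, and CB XX 1 is the only line with more *Pramel6* than *Pramel7* signal.

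The genes around *Pramel6* and *Pramel7* are olfactory receptor genes, which serve the sense of smell. *Olfr153*, 20924 bases from *Pramel6*, had a median of 7.97 in the XX and 1.04 in the XY lines and reached at most 15 steps in a line. Of the other neighbours, *Olfr1128* reached at most 7 steps, *Olfr1124* 1 step, and *Olfr1123*, *Olfr1126* and *Olfr1129* were at 0 in all lines. Around *Pramel5*, *Gm13128*, *Gm13119* and *Gm13125* had medians of 36.2, 28.3 and 4.34 in the XX lines and of 6.27, 2.53 and 0.416 in the XY lines. The gene nearest to *Pramel4*, *Gm13102*, which leads the genes that share its 50-base stretches, was at 1 step or less.

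Other PRAME family genes were taken from a list of 36, of which 32 were in the table. Of these, 10 were at 0 in all lines, and 14 exceeded 3 steps in at least 1 line, 13 of them on chromosome 4. *Gm13128* (RefSeq *Pramel30*) was at 68.4, 27.7 and 66.8 in the BC XX lines and at 29.8, 42.6 and 25.8 in the CB XX lines. It was at 3.75, 8.31 and 9.37 in the BC XY and at 6.06, 4.91 and 6.49 in the CB XY lines, and at 4.79 and 0.711 in the XO lines. The XX lines were all above the XY and XO lines. Because it reached the minimum value of 10 in the 6 XX lines and in 0 others, it entered the test only through the group where it was high. The test values that follow for it are therefore a description. The difference in log2(value + 5) was 2.005 (standard error 0.26, limma adjusted p = 0.00119), and it passed with each of the 12 lines left out in turn (adjusted p at most 0.00540) and without CB XY 2 and CB XY 3 (0.00810).

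*Gm13119* (RefSeq *Pramel31*) rose as well, by 1.89 (standard error 0.49, limma adjusted p = 0.0385). Its BC XX values were 112, 27.3 and 30.5 and its CB XX values 4.26, 29.2 and 17.8, against 0.831 to 15.4 in the XY lines, so that the groups overlapped. It passed in only 2 of the 12 fits with a line left out, and the adjusted p was 0.0664 without BC XX 1 and 0.143 without CB XY 2 and CB XY 3. In all, 2 of the 6 paralogs tested were called higher in XX lines and 0 lower, where 3.21% and 1.99% of all genes were, or 5.21% in either direction. The count is a description, because *Gm13128* passed the filter through XX lines only and *Gm13119* through 5 XX lines and 1 XY line. The 6 fell apart into 3 differences from 1.85 to 2.005 and 3 from -0.26 to -0.05. *Gm12794* (RefSeq *Pramel19*) had a difference of 1.85 that missed the threshold (limma adjusted p = 0.0712), with 178, 40.3 and 41.3 in the BC XX and 5.69, 20.7 and 20.4 in the CB XX lines. This gene too passed the filter through 5 XX lines and 1 XY line.

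The most abundant family members did not follow this pattern. *Pramef12* had 901 to 1314 in the XX and 787 to 1395 in the XY lines, and *Pramef8* 797 to 1056 and 938 to 1782, with differences of -0.09 and -0.26 (limma adjusted p = 0.795 and 0.343). The pooled values hide a difference by cross. Within the BC cross the 2 differences were -0.50 and -0.56 (limma adjusted p = 0.0986 and 0.0916). Within the CB cross they were 0.33 and 0.04 (limma adjusted p = 0.324 and 0.932). Per kilobase of exon, *Pramef12* had a mean of 410 in the XX lines and *Pramef8* 220, both above *Pramel7*. *Pramel1* was at 20.8 to 37.8 in the XX and 11.2 to 87.0 in the XY lines (difference -0.05, limma adjusted p = 0.948). Among the 14 paralogs above 3 steps in at least 1 line, 11 had a higher mean in XX than in XY lines, as did 48.7% of the 18727 genes of the table above 3 steps in at least 1 line. For 3 of the 14 that level was reached in XX lines only, so that their direction followed from how they were kept. *Pramef17* and *Gm13128* had every XX line above every XY line, as did 2.08% of the same 18727 genes. *Gm13125* did so by value only. Its lowest XX line, 1.42 in CB XX 1, and its highest XY line, 1.30 in CB XY 3, were both at a single step. Of the read-length stretches of *Gm13128*, 73.8% occur in *Pramef17*. Reads may thus be divided between *Gm13128* and *Pramef17*, which cannot be taken as independent cases.

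Within the crosses the paralogs were tested in the model of 5 groups, in which 10 passed the filter on low values. Of these, *Gm13128*, *Gm13078*, *Gm13083*, *Pramef17* and *BC080695* reached a value of 10 in XX lines only and so passed through the lines where they were high, and the counts below are descriptions. Between BC XX and BC XY lines, *Gm13128*, *Gm13119*, *Gm12794*, *Gm13078*, *Pramef17* and *BC080695* were higher in XX lines, with differences from 1.28 to 2.57 (limma adjusted p from 0.00402 to 0.0393), where 5.70% of all genes were called. Between CB XX and CB XY lines *Gm13128* alone was called (1.78, standard error 0.35, limma adjusted p = 0.0158), where 3.57% of all genes were, and it was lost without CB XX 2, without CB XY 1, without CB XY 2, and without CB XY 2 and CB XY 3 together. The difference between the crosses passed the threshold for 0 of the 10 paralogs in the interaction test with limma, and 3 had an unadjusted p under 0.05. *Gm13078* was lower in CB XX than in BC XX lines, with 1.42 to 4.44 against 10.2 to 38.1 (limma adjusted p = 0.0310), where 4.25% of all genes were lower, and this call was lost without BC XX 1, BC XX 3, CB XX 1 or CB XX 2, and with the feeder level as a covariate. It reached 10 in BC XX lines only.

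The same 6 paralogs were called between BC XX and BC XO lines (differences from 1.78 to 3.18, limma adjusted p from 0.00699 to 0.0479), where 4.66% of all genes were called. That comparison shares its BC XX lines with the one against BC XY. Without BC XX 3 *Gm13128* alone was called, as it was without BC XO 1, and without BC XO 2 none of the 10 was, in fits that called 70, 5 and 12 of all genes against 758. With 1 XO line left, that line is assumed to vary like the other groups. With the feeder level as a covariate 0 of the 10 were called, and 8 of all genes. Between BC XO and BC XY lines 0 of the 10 were called by limma, where 0.00615% of all genes were, with *Pramef12* alone at an unadjusted p under 0.05 (lower by 0.46 in XO, adjusted p = 0.999).

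BC XX 1 had the highest value of the 14 lines for 7 of the 14 paralogs, among them *Gm12794*, *Gm13119* and *BC080695* (58.9, against at most 12.2 in any other line). It also had the highest mean log2 level of 10 genes of the 2-cell embryo state, 4.70, against 3.26 and 3.48 in the other BC XX lines and 2.55 to 3.02 in the other lines. Without BC XX 1, *Gm13078* and *Gm13128* were the paralogs called between BC XX and BC XY lines, as they were without BC XX 3. Without BC XY 2 they were *Gm13128* and *Pramef17*, and without BC XY 1 *Gm13078*, *Gm13128* and, lower in XX lines, *Pramef8*. *Gm13128* was called in each of these fits. The feeder fibroblast signal was also highest in the BC XX lines. With its mean level as a covariate, 0 of the 10 paralogs were called by limma between BC XX and BC XY lines and 1, *Gm13128*, between CB XX and CB XY lines. These fits called 7 and 696 of all genes, against 927 and 581 without the covariate. The part of either in the paralog values was not tested. Of the 50-base stretches of *Gm13128*, 73.8% occur in *Pramef17*, 40.0% of those of *Gm13119* in other genes and 47.3% of those of *Gm12794*, so that reads may be divided among copies. *Pramef8*, *Pramef12*, *Pramel1* and *Gm13125* share 0 stretches.

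**Figure D4:**
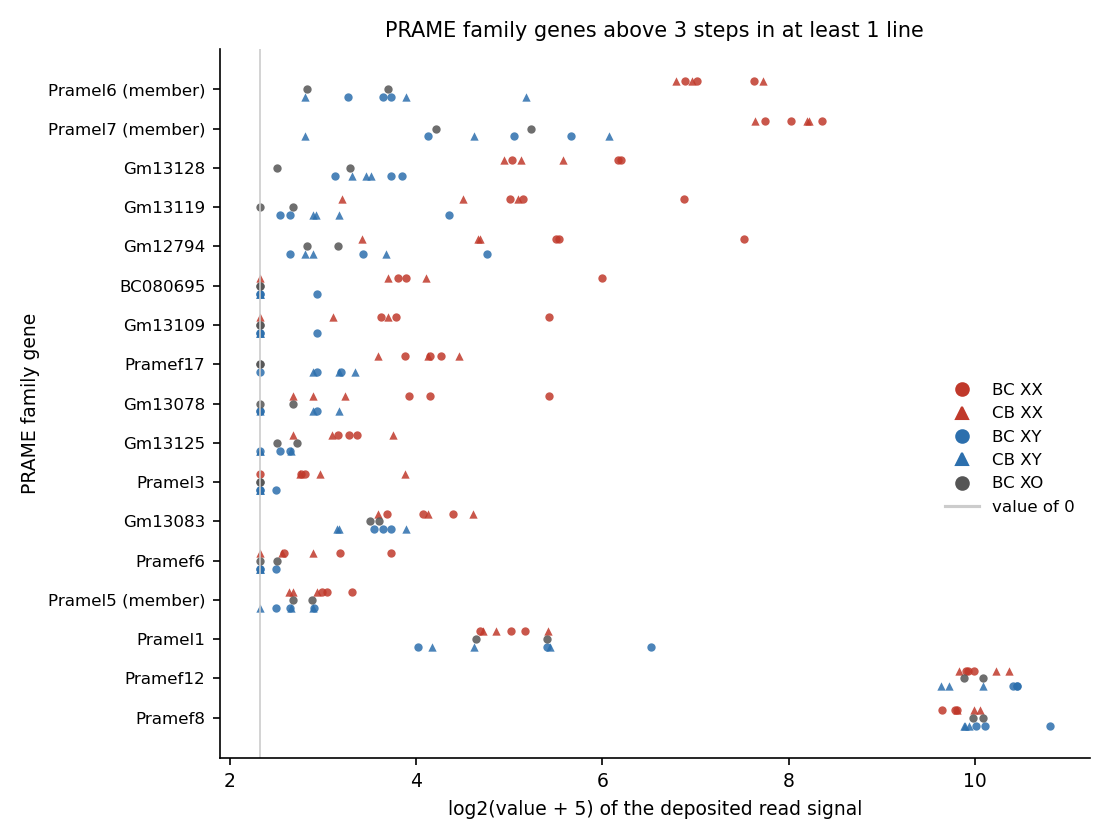
log2(value + 5) of the 17 PRAME family genes above 3 steps in at least 1 line, with red for XX, blue for XY and grey for XO lines, circles for BC and triangles for CB, and a grey line at a value of 0. *Pramel6*, *Pramel7*, *Gm13128* and, by a smaller gap, *Pramef17* show XX lines apart from all others. BC XX 1 is the rightmost point for several paralogs, and *Pramef8* and *Pramef12* lie far higher with mixed colours.

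The genes of the Cullin 2 ligase, which Pramel7 is known to recruit, gave no call between XX and XY lines. *Cul2* itself, the scaffold, was at 3647 ± 504 (SD, n = 6) and 3007 ± 334 (SD, n = 6), and *Tceb1*, the elongin C adaptor, at 2877 ± 276 and 2210 ± 547 (SD, n = 6 each), with limma adjusted p of 0.177 and 0.131. By limma 0 of 5 genes were called, where 5.21% of all genes were. *Cul2* and *Tceb1* had an unadjusted p under 0.05, where 23.1% of all genes did, and the median difference of the list was -0.01.

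Among 9 genes of the DNA methylation machinery, the de novo methyltransferases *Dnmt3b* and *Dnmt3a* were lower in XX lines and 0 were higher. Of all genes 1.99% were called lower and 3.21% higher. The list was chosen with earlier results of these data known, and the paper already reports both genes as higher in XY cells, so the count is a description. *Dnmt3b* was at 5388 ± 2510 (SD, n = 6) in XX and 13280 ± 3899 (SD, n = 6) in XY lines, a difference of -1.35 (limma adjusted p = 0.0171). It passed with each of the 12 lines left out in turn, but not without CB XY 2 and CB XY 3 (adjusted p = 0.0673). *Dnmt3a* fell by 0.62 (limma adjusted p = 0.0442) and passed in 4 of those 12 fits. *Uhrf1*, whose protein is the target of Pramel7, was at 13541 ± 4499 (SD, n = 6) in XX and 17629 ± 3060 (SD, n = 6) in XY lines and did not pass (difference -0.42, limma adjusted p = 0.203). These are RNA values, which do not show the level of the UHRF1 protein. *Dnmt1* differed by -0.21 and *Tet1*, which oxidises methylated cytosine, by 0.06 (limma adjusted p = 0.337 and 0.891). The median of the list was -0.21.

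For LIF and STAT3, upstream of Pramel6 and Pramel7, 0 of 11 genes were called by limma, and 3 had an unadjusted p under 0.05, where 23.1% of all genes did. *Stat3* was at 3334 ± 568 (SD, n = 6) in XX and 4182 ± 391 (SD, n = 6) in XY lines (limma adjusted p = 0.123), and *Il6st*, the gp130 co-receptor, at 4813 ± 744 and 3665 ± 607 (SD, n = 6 each, limma adjusted p = 0.117). *Socs3*, a target and inhibitor of STAT3, had a difference of -0.78 (limma adjusted p = 0.200). The median was -0.12.

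Germline genes that are silenced in somatic cells by promoter methylation were higher in XX lines for 4 of 12 tested and lower for 0, where 3.21% and 1.99% of all genes were called. The list was chosen with earlier results of these data known, and the paper already names *Dazl* as higher in XX cells. The count is therefore a description. *Hormad1*, of the meiotic chromosome axis, was at 1649 ± 282 (SD, n = 6) in XX and 325 ± 120 (SD, n = 6) in XY lines (difference 2.39, limma adjusted p = 0.000395). *Stk31*, a kinase-like gene of the testis, was at 521 ± 178 and 176 ± 53.2 (SD, n = 6 each, difference 1.54, limma adjusted p = 0.00443). For both, no XY line reached an XX line, and both passed with each of the 12 lines left out and without CB XY 2 and CB XY 3. *Sycp1*, of the synaptonemal complex, rose by 1.89 (limma adjusted p = 0.0208), but not without BC XX 1 (0.0541) or without CB XY 2 and CB XY 3 (0.0799). *Dazl*, an RNA-binding protein of germ cells, rose by 1.57 (limma adjusted p = 0.0467) and passed in 2 of 12 fits with a line left out. *Ddx4*, *Sycp3* and *Dppa3* had differences of -0.08, -0.22 and -0.35 and were not called. The median over the 12 was 0.97.

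The remaining lists serve as markers. Of all genes 5.21% were called between XX and XY lines, and 23.1% had an unadjusted p under 0.05. Of 10 genes of the 2-cell state 2 passed the filter, *Zfp352* and *Gm8300*, and 0 were called by limma, with 1 at an unadjusted p under 0.05. Of 10 ES cell markers 0 were called and 1 had an unadjusted p under 0.05, with a median of -0.01, and *Pou5f1*, *Sox2* and *Nanog* differed by -0.07, -0.06 and 0.03. Of 20 feeder fibroblast markers *Thy1* was called (1.51, limma adjusted p = 0.0476), and all 20 differences were above 0, with a median of 1.28. The part of feeder RNA in the other lists was not tested beyond the covariate. Of 4 Y-linked genes 0 were called by limma, and 2 had an unadjusted p under 0.05. With the feeder level as a covariate, *Hormad1*, *Stk31*, *Dnmt3b* and *Gm13128* still passed (limma adjusted p from 0.00590 to 0.0142), and *Sycp1*, *Dazl*, *Dnmt3a* and *Gm13119* did not. The differences of *Pramel6* and *Pramel7* in that fit were 3.45 and 3.43.

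Between CB XX and BC XX lines, 10 of the 20 feeder markers and the 2-cell genes *Zscan4c* and *Zscan4f* were lower in CB XX, as was the kinase gene *Jak2* of the LIF list. Of all genes 4.25% were lower there, and 7.15% were called in either direction. *Rpl10l* of the germline list and the ES cell marker *Utf1* were higher, and the Cullin 2, DNA methylation and Y-linked lists had 0 calls by limma. Between CB XY and BC XY lines, and for the interaction, every list had 0 calls by limma, where 0.64% and 0.0738% of all genes were called. At an unadjusted p under 0.05 the former had 8 of 14 germline genes, where 18.7% of all genes passed, and 0 to 6 in the other lists. The interaction had 12 of 20 feeder markers, where 9.05% of all genes passed, and 0 to 4 in the other lists.

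**Figure D5:**
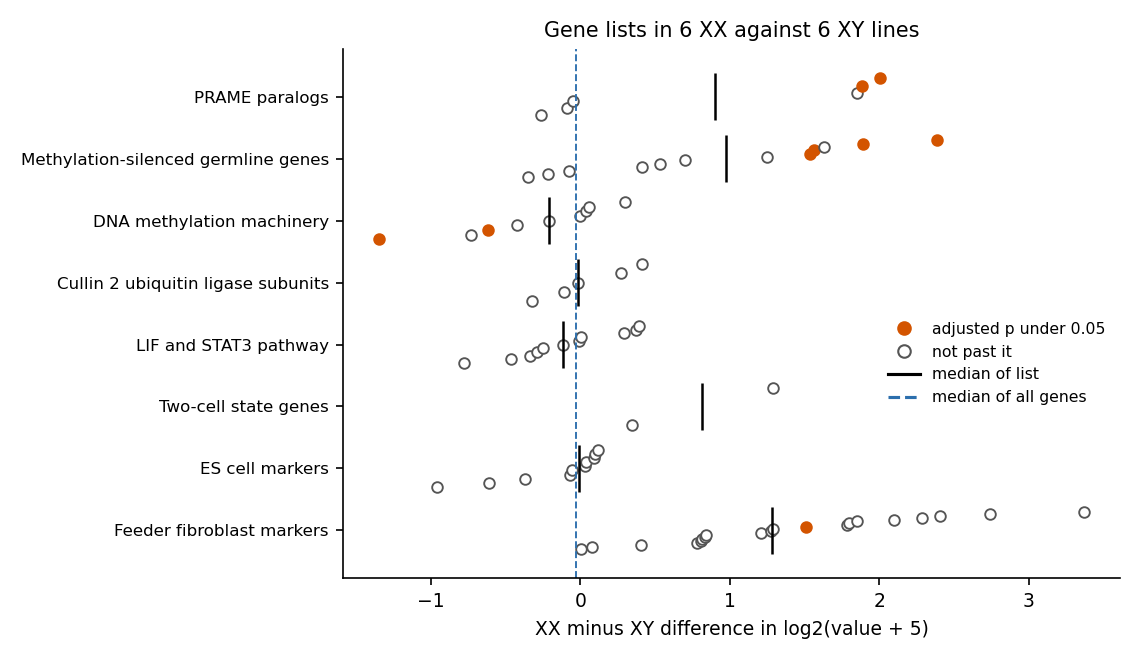
XX minus XY difference in log2(value + 5) of each tested gene by list, with filled points for limma adjusted p under 0.05, black bars for list medians and a dashed line for the median of all genes, -0.03. Filled points lie to the right for the germline genes and PRAME paralogs and to the left for DNA methylation genes, and the feeder markers all lie to the right of 0.

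The genes most like *Pramel6* over the 14 lines, by Pearson correlation of log2(value + 5) among 16259 genes, were *Efhc2* on the X chromosome (0.971), *Apold1* on chromosome 6 (0.959), *Gm973* on chromosome 1 (0.958), *Zrsr2* on the X chromosome (0.955) and *Hormad1* on chromosome 3 (0.953). For *Pramel7* they were *Usp26* (0.962), *Psmd10* (0.960), *Gprasp1* (0.960), *Mtmr1* (0.955) and *Zrsr2* (0.952), all on the X chromosome. Between *Pramel6* and *Pramel7* it was 0.943. The lines form an XX cluster and an XY and XO cluster and share their depth differences, so these values describe mainly that split and carry no test. *Efhc2*, a gene for an EF-hand protein, was at 202 ± 66.1 (SD, n = 6) in XX and 24.2 ± 12.3 (SD, n = 6) in XY lines and at 27.1 and 6.40 in the XO lines. *Usp26*, a deubiquitinase gene, was at 3195 ± 941 (SD, n = 6), 385 ± 310 (SD, n = 6), 140 and 114. In all of these 9 genes, the lowest XX line was above the highest XY line, as in 2.29% of all genes tested between these lines. Because the 9 were picked for their likeness to *Pramel6* and *Pramel7*, which were chosen for that split, nothing is read from this. X-linked genes as a whole, relative to autosomal genes, had a median log2 level of 0.51 to 0.70 in the XX lines and of -0.26 to 0.05 in the XY and XO lines, relative to BC XY lines.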

How the data were processed

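RNA-seq of total RNA from 14 ES cell lines was used. According to the methods, stranded libraries were prepared in batches of 6 that are not assigned to lines, and single-end reads were aligned to mm9 with TopHat2 and compared with Cufflinks. The processing notes name Cuffdiff. The authors deposited a read signal per gene, reads scaled per line to a common depth, some of them fractional. How reads with several matches and strand were counted is not given in the sources used here. Positions and exon lengths are from GENCODE M1 (NCBIM37), promoters from RefSeq.

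Values were used as log2(value + 5), which understates the fold of low genes, and compared with limma 3.58.1 in R 4.3.3 (trended variance, Benjamini-Hochberg adjustment over all genes tested, threshold 0.05). For XX against XY a value of 10 or more was required in at least 6 of 12 lines, and in the model of 5 groups on 14 lines in at least 2. 15 genes listed at 0 in a whole group and at 100 or more elsewhere were left out. Depth per line (11904424 to 69646376 steps) limits low genes. Intervals and floors cover the spread or counting error only. Correlations had an exact permutation test in Python 3.11.15 with SciPy 1.17.1, for which the smallest possible p was 0.00278. The fits were tested on simulated data. Because the values are not whole counts, count tests were not run.

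The 4 members and the gene lists were chosen with earlier results of these data known. Genes named are the members, the lists, the 3 neighbours on each side and the 5 genes most correlated with *Pramel6* and with *Pramel7*. *Pramel6* and *Pramel7* have no test between XX and XY or XO lines, since their values there chose them. Alternatives changed pseudocount, scaling, filter, covariates, the lines in the model and each line in turn.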

Additional observations from a re-analysis of the deposited data

Results flagged for a closer look

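*Pramel6* at 31.2 in CB XY 3 lay far from the other XY lines, which were at 2.02 to 9.82. Its distance to the nearest of them exceeded the 95% limit of Dixon's test for 6 values, a limit that chance passes in about 1 in 20 groups of normally distributed values. The test used the values without a logarithm. On log2(value + 5) this line was at 5.18 and the other XY lines at 2.81 to 3.89, and the test was not run on that scale. CB XY 3 also had the highest *Pramel7* value of the XY lines, 62.3, and *Uty* at 45.4. Without it the XX minus XY difference of *Pramel6* was 3.70.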

How the results depend on the processing

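The 2 planned count tests were not run because whole reads could not be recovered from fractional values, and *Pramel6* had no value in the CB XY against BC XY fit on those groups alone, where it failed the filter. In the 6 tests of *Pramel6* and *Pramel7* between crosses, 0 of 134 alternatives passed 0.05 by limma (adjusted p 0.286 to 1.00) and 11 changed sign. The cause of the changes was not tested.

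Genes called between XX and XY lines, 797, became 362 with the feeder covariate, 1697 with the cross as a covariate and 313 without CB XY 2 and CB XY 3, and 410 (without BC XX 1) to 1746 (without CB XX 1) with a line left out. The *Pramel6* difference was 2.44 with a pseudocount of 20 and 3.22 to 3.70 with a line left out, and that of *Pramel7* 2.92 to 3.57. Calls among paralogs, 2, became 1 with a pseudocount of 20 and with the feeder covariate, and 1 to 3 with a line left out. Cullin 2 calls became 1 with the cross (0 to 1 with a line left out). DNA methylation calls, 2, became 1 with no filter, 1 with the feeder covariate and 0 without CB XY 2 and CB XY 3 (1 to 4). Germline calls, 4, became 2 with the feeder covariate and 2 without CB XY 2 and CB XY 3 (2 to 6). 2-cell calls became 1 with the cross (0 to 1), and LIF and STAT3 calls were 0 to 1.

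Between CB XX and BC XX lines, 1162 calls became 586 with no filter, 47 with the feeder covariate, 78 with those groups alone, 657 without CB XY 2 and CB XY 3, and 119 to 2576 with a line left out, with *Pramel6* at -0.29 to 0.21 and *Pramel7* at -0.17 to 0.16. Between CB XY and BC XY lines, 104 calls became 10, 1102, 382 and 2 in that order of settings and 2 to 422 with a line left out, with *Pramel6* at -0.20 to 0.98 and *Pramel7* at -1.23 to 0.40. *Pramel6* was at -0.74 without CB XY 2 and CB XY 3. For the interaction, 12 calls became 21 with a pseudocount of 20, 4 with no filter, 6 with the feeder covariate, 2 with the 4 groups alone, 2 without CB XY 2 and CB XY 3, and 0 to 25 with a line left out. There *Pramel6* was at 0.73 without CB XY 2 and CB XY 3 and at -0.996 to 0.19 with a line left out, and *Pramel7* at -0.43 to 1.21. The correlation in XX lines was -0.685 to 0.555 and in XY lines 0.510 to 0.943 with a line left out, and -0.656 in XY lines without the 2 farthest.

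The replicate numbers were not shown to pair the lines (correlations of same-numbered lines' deviations from -0.220 to 0.270), and the numbers of the CB XX columns do not match the sample titles. With the replicate block on the 9 numbered lines, 1940 genes were called between XX and XY lines against 2215 without it (a fit added after seeing the data), with 4 paralogs either way, 3 LIF and STAT3 genes against 1, and 1 2-cell gene either way. The XX lines of both fits were the 3 BC XX lines only, against XY lines of both crosses. Complement can there not be fully told apart from cross or from the high feeder signal of BC XX lines. Between CB XY and BC XY lines the block gave 368 against 382. No paired analysis was possible for the CB XX lines because the numbers of their columns do not match those of the sample titles.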
